A study of Sus scrofa with 18 samples.

Results

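Cone photoreceptors carry daylight and colour vision, and the 5 genes described here, ARR3, OPN1SW, GRK7, PDE6C and RXRG, each belong to the machinery of these cells. They were taken by symbol: a probe set of the array counted when its only gene symbol in the platform annotation was one of these names. Each gene had exactly 1 such probe set, so the 5 genes correspond to 5 of 24123 probe sets in the deposited table, and all 5 were among the 16799 probe sets tested and the 5710 genes those represent. The annotation ties the probe sets of ARR3, OPN1SW and GRK7 to RefSeq mRNAs, and those of PDE6C and RXRG to expressed sequence tags. All 5 gene identifiers were found in the RefSeq pig gene table with the symbol unchanged.

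The retinas came from male domestic piglets (Landrace x Large White), obtained at 3 days of age, assigned to a diet at random and sampled at postnatal day 38. Of the 18 piglets, 9 received pig milk replacer with a sialyllactose supplement and 9 received the replacer without the supplement, which the labels call the basal level (control). Sialyllactose is a milk sugar in which lactose is joined to sialic acid. Total RNA of each retina was hybridised to 1 Affymetrix pig array, and the values are log2 levels from RMA, a method that puts the probes of a set and all arrays on a common scale. No dose of sialyllactose, no litter and no region of the retina is given in the sources used here.

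In a cone, light is caught by an opsin, which activates a G protein, which in turn activates a phosphodiesterase that lowers cyclic GMP and closes cation channels in the outer segment. A receptor kinase then phosphorylates the active opsin and an arrestin caps it, which ends the response. Most mammals have cones with a short-wavelength opsin and cones with a longer-wavelength opsin, and in mouse retina their distribution between the dorsal and ventral retina is governed by thyroid hormone and retinoid receptors. OPN1SW is the short-wavelength opsin. PDE6C is the catalytic subunit of the cone phosphodiesterase. GRK7 is the cone opsin kinase, ARR3 is cone arrestin, and RXRG is a retinoid X receptor that in mouse holds short-wavelength opsin down in part of the cones.

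Array signals of different probe sets are not on a common molar scale, so each gene is set only against itself. Any pair of arrays correlated at 0.98 to 0.99 over the tested probe sets, no 2 arrays held identical values, and control replicate 2 had the lowest mean correlation with the others (0.983). The array files carry no detection call. The mean over all arrays that a probe set had to exceed to be tested was 1.48, and PDE6C, with a mean of 1.65, lay just above it, while ARR3, OPN1SW, GRK7 and RXRG had means of 9.63, 5.17, 3.61 and 2.88. Of 19 genes on a cone list drawn up for this work, 6 had a named probe set. The one besides these 5 was THRB, a thyroid hormone receptor needed for longer-wavelength cones in mouse, which had a mean of 1.42 and was not tested.

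The first question was whether the diet changed the cone genes. No tested probe set passed an adjusted p of 0.05 for sialyllactose minus control (0 of 16799, 0%, limma with Benjamini-Hochberg adjustment, lowest adjusted p 0.691), so none of the 5 cone genes did. All 5 had the higher mean in sialyllactose retinas, where 46.6% of all tested probe sets did. They kept this direction when each array was centred on its median, which put 55.8% of all probe sets higher. At an unadjusted p under 0.05, 1059 probe sets (6.3%) remained and 0 of the 5 cone genes were among them. In bulk retina, fewer cones and less RNA per cone cannot be told apart, and this holds for every value below.

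OPN1SW, the light-catching protein of short-wavelength cones, had levels of 4.61 at the lowest, 5.22 at the median and 5.56 at the highest in sialyllactose retinas, against 4.62, 5.01 and 5.99 in control retinas. The groups overlapped almost completely: 8 of 9 sialyllactose retinas lay above the control median, yet 2 controls were above every sialyllactose retina and 1 sialyllactose retina was below every control. The means were 5.20 ± 0.29 with sialyllactose and 5.14 ± 0.46 in controls (SD, n = 9 each). The difference of 0.06 had a 95% interval of -0.27 to 0.40, a fold of 1.04 (0.829 to 1.32), with a limma adjusted p of 0.971 and a two-sided exact permutation p of 0.729 for this probe set alone. Without control replicate 5 the difference was -0.00165, and without control replicate 7 it was 0.17.

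PDE6C, which breaks down cyclic GMP in the cone outer segment, had levels of 1.47, 1.67 and 2.02 (lowest, median and highest) with sialyllactose, against 1.45, 1.69 and 1.81 in controls. The highest retina was a sialyllactose one, but the sialyllactose median lay below the control median, and only 3 of 9 sialyllactose retinas exceeded the control median. The means were 1.67 ± 0.17 and 1.64 ± 0.13 (sialyllactose and control, SD, n = 9 each), a difference of 0.03 (-0.12 to 0.17), with a limma adjusted p of 0.971 and an exact permutation p of 0.707. The mean difference turned to -0.02 without sialyllactose replicate 8. The sign of this difference thus rested on 1 retina.

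GRK7, the kinase that marks active cone opsin for shut-off, had levels of 3.39, 3.72 and 3.98 (lowest, median and highest) in sialyllactose retinas, against 3.11, 3.44 and 4.19 in control retinas. Again 8 of 9 sialyllactose retinas were above the control median, while 3 controls lay below every sialyllactose retina and 1 lay above all of them. GRK7 averaged 3.70 ± 0.19 with sialyllactose and 3.52 ± 0.30 in controls (SD, n = 9 each). This was the widest mean difference of the 5 genes, 0.18 (-0.05 to 0.41) or 1.13-fold (0.965 to 1.33), and it did not pass the test (limma adjusted p 0.832, exact permutation p 0.158). Leaving out single retinas gave 0.13 without control replicate 4 and 0.26 without control replicate 7.

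ARR3, the arrestin that caps phosphorylated cone opsin, had levels of 9.40, 9.65 and 10.10 (lowest, median and highest) with sialyllactose, against 9.11, 9.51 and 10.18 in controls. The sialyllactose retinas sat inside the control range: 3 controls were below all of them and 1 was above all of them. The means were 9.69 ± 0.21 with sialyllactose and 9.57 ± 0.34 in controls (SD, n = 9 each), a difference of 0.12 (-0.13 to 0.37) or 1.09-fold (0.911 to 1.30). It did not pass the test (limma adjusted p 0.905, exact permutation p 0.383), and it was 0.06 without control replicate 3 and 0.20 without control replicate 7.

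RXRG, the retinoid X receptor of cones, had levels of 2.48, 2.94 and 3.23 (lowest, median and highest) in sialyllactose retinas, against 2.38, 2.90 and 3.14 in controls. The ranges nearly coincided, with 1 sialyllactose retina above all controls and 2 controls below all sialyllactose retinas. Its means were 2.91 ± 0.21 and 2.84 ± 0.27 (sialyllactose and control, SD, n = 9 each), a difference of 0.07 (-0.15 to 0.29) with a limma adjusted p of 0.945 and an exact permutation p of 0.568. Without control replicate 8 the difference was 0.01.

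**Figure D1:**
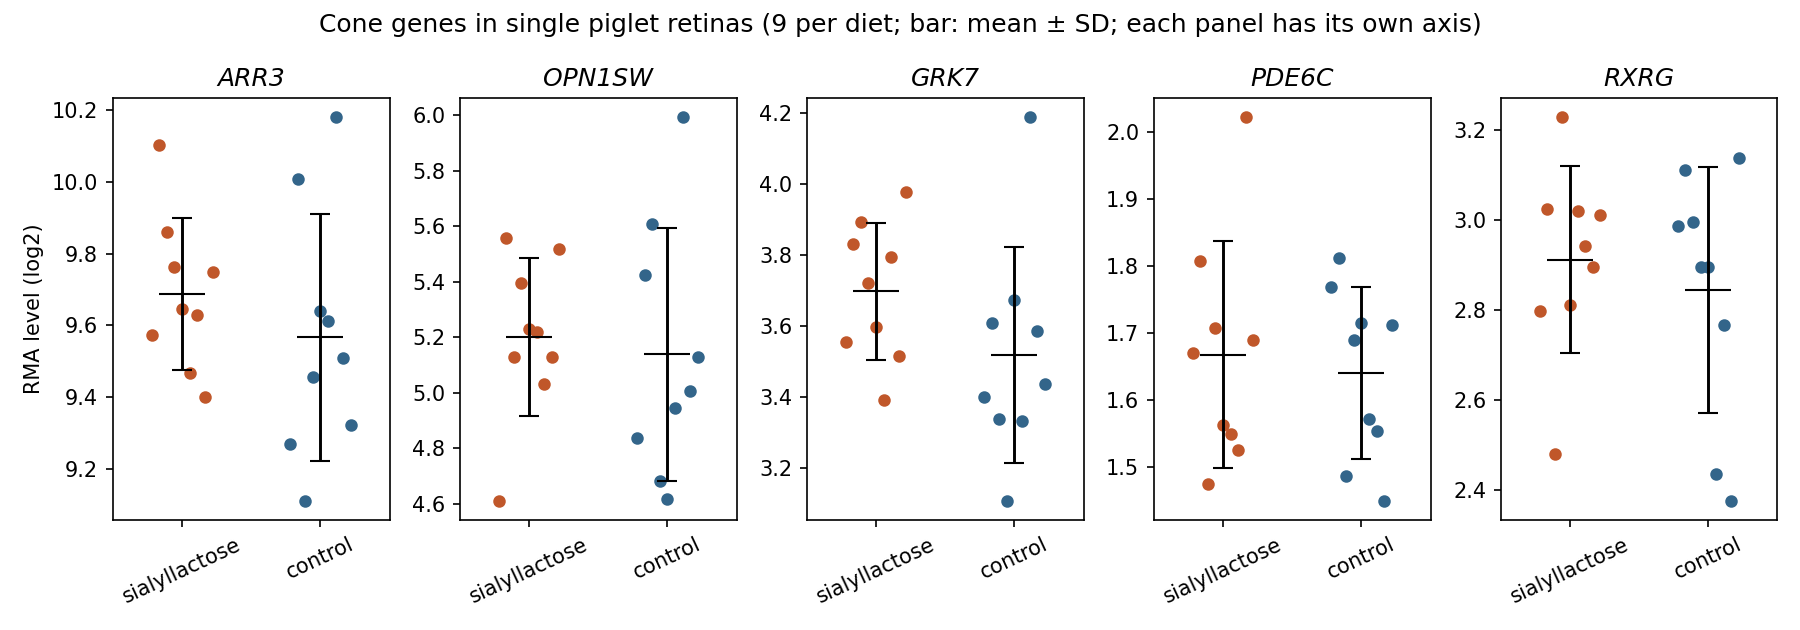
RMA level (log2) of each cone gene in every retina, sialyllactose left and control right; points are single retinas, bars are mean ± SD, and each panel has its own axis. The groups overlap in all 5 panels; for ARR3, OPN1SW and GRK7 the highest point is a control retina, at 10.18, 5.99 and 4.19.

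**Figure D2:**
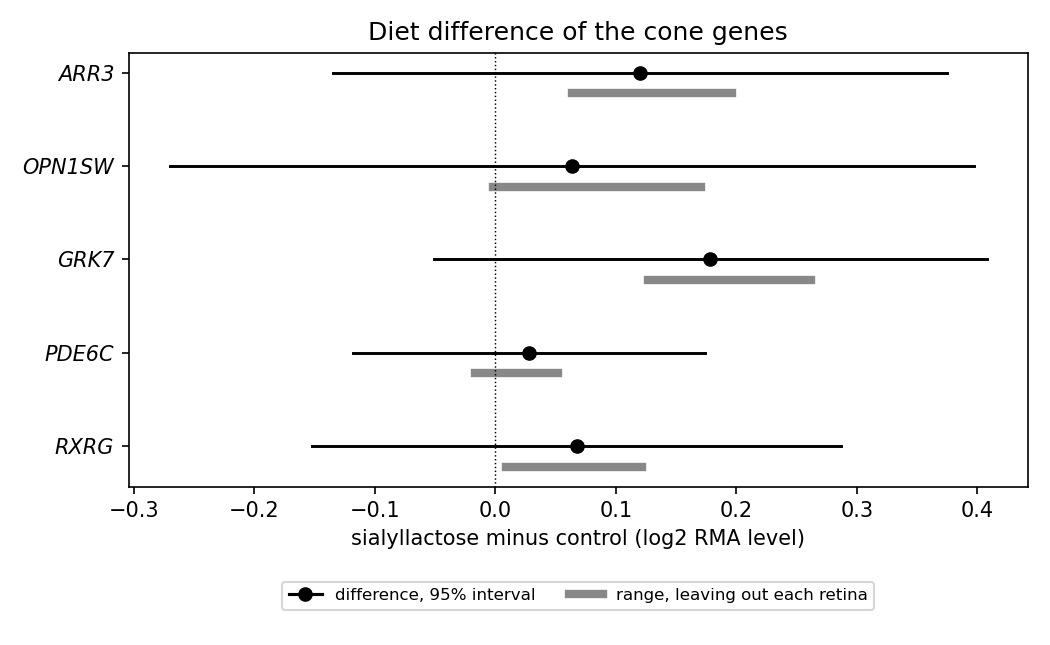
Difference of mean log2 level, sialyllactose minus control, for each cone gene, with its 95% interval as a line and the range over leaving out each retina in turn as a grey bar. All 5 intervals include 0, and the grey bar crosses 0 for OPN1SW and PDE6C.

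Markers of other retinal cells also had diet differences, none of which passed after adjustment. Of 11 tested Müller glia genes, 10 had the lower mean with sialyllactose, where 46.6% of all probe sets had the higher one. An unadjusted p under 0.05 was found for 3 of them (6.3% of all probe sets), among them GFAP, an intermediate filament of reactive glia, and VIM, its companion in glia (GFAP 5.28 and 5.69, VIM 8.52 and 8.78, sialyllactose and control means). Of 8 endothelium and pericyte genes, 8 had the lower mean and 3 had an unadjusted p under 0.05, including TEK, a receptor of vessel cells, at 1.62 with sialyllactose and 1.86 in controls. With each array centred on its median, 9 of 11 and 6 of 8 of these genes had the lower mean, while 55.8% of all probe sets had the higher one. The mean level of the Müller glia list ranged from 7.02 to 7.37 with sialyllactose and from 7.10 to 7.65 in controls, that of the endothelium list from 3.12 to 3.56 and from 3.24 to 3.70. Photoreceptor genes outside the cone set were few. SAG, rod arrestin, averaged 10.56 ± 0.17 with sialyllactose and 10.66 ± 0.10 in controls, and CNGA1, the rod channel subunit, 3.47 ± 0.21 and 3.19 ± 0.45 (SD, n = 9 each). The difference was -0.10 for SAG and 0.29 for CNGA1, with limma adjusted p of 0.841 and 0.783. What part any of these levels has in the cone values was not tested.

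Apart from PDE6C, the cone genes had a wider spread between retinas of a diet than most probe sets. The SD within diets was 0.38 for OPN1SW, 0.29 for ARR3, 0.25 for GRK7, 0.24 for RXRG and 0.15 for PDE6C, where the median over tested probe sets was 0.16. Among all tested probe sets these SDs stood at percentile 97.9, 94.6, 91.3, 89.3 and 45.9 in the same order. Between the lowest and the highest of the 18 retinas, OPN1SW differed 2.61-fold, GRK7 2.11-fold, ARR3 2.10-fold, RXRG 1.80-fold and PDE6C 1.49-fold.

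The spread was narrower with sialyllactose for 4 of the 5 genes. The ratio of SDs, sialyllactose over control, was 0.616 for ARR3, 0.626 for OPN1SW, 0.637 for GRK7 and 0.76 for RXRG, and 1.32 for PDE6C. A narrower spread with sialyllactose was common on these arrays, found in 62.6% of all tested probe sets, with a median ratio of 0.875. In limma fits of absolute deviations from the diet mean, adjusted p was 0.773 for ARR3, 0.756 for OPN1SW, 0.862 for GRK7, 0.952 for PDE6C and 0.827 for RXRG. No probe set passed (0 of 16799, 0%, lowest adjusted p 0.183), and 1129 (6.72%) had an unadjusted p under 0.05. In simulated data, where the spread was planted wider with sialyllactose, this fit recovered only 6% of SD ratios of 4. A narrower spread was not planted, so its recovery is not known and a failure to pass says little. Without control replicate 7 the GRK7 difference in spread, sialyllactose minus control, turned from negative to 0.02, that of ARR3 was -0.0446 in place of -0.105, and that of OPN1SW -0.0721 in place of -0.166.

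The second question was whether the cone genes move together from retina to retina. Correlations below were taken over values centred on their own diet mean unless another basis is given, and 10 pairs were computed. ARR3 and GRK7, the pair that shuts off the opsin, gave the closest relation (Pearson r 0.75 within diets, permutation p 0.00089). Over the uncentred values of 18 retinas r was 0.76 (permutation p 0.00029) and Spearman rho 0.82 (permutation p 2e-05). In each diet taken alone, r was 0.74 in sialyllactose retinas (exact permutation p 0.0217) and 0.75 in control retinas (exact permutation p 0.0167). Spearman rho was 0.80 in sialyllactose retinas (exact permutation p 0.0138) and 0.67 in control retinas (exact permutation p 0.0589). Without the 2 retinas farthest from the ARR3 median, control replicates 3 and 7, r was 0.65 (permutation p 0.00591, n = 16).

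Set against the whole array, this relation did not pass, in fits that recovered 54% of planted r of 0.8 in simulated data. In limma fits of every other probe set on 1 gene with diet in the model, adjusted p was 0.231 when ARR3 was the predictor and 0.531 when GRK7 was. By r, GRK7 stood at rank 18 of 16798 for ARR3, and ARR3 at rank 9 of 16798 for GRK7. Control replicate 7 was the highest of all 18 retinas in ARR3, OPN1SW and GRK7. Without it the within-diet r of ARR3 and GRK7 was 0.60.

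The short-wavelength opsin had lower correlations with the shut-off pair, and these leaned on that retina. OPN1SW and GRK7 had r 0.57 within diets (permutation p 0.0285) and 0.56 over uncentred values (permutation p 0.0154), with Spearman rho 0.44 (permutation p 0.0723). This became 0.40 (permutation p 0.127, n = 16) without the 2 retinas farthest from the OPN1SW median, control replicate 7 and sialyllactose replicate 1, with a p no longer under 0.05. Without control replicate 7 alone the within-diet r was 0.27. ARR3 and OPN1SW had r 0.46 within diets (permutation p 0.0898), 0.47 over uncentred values (permutation p 0.0512) and Spearman rho 0.43 (permutation p 0.0768). Their within-diet r was 0.18 without control replicate 7 and 0.70 without control replicate 3, which was lowest of all in ARR3 and second highest in OPN1SW. Neither pair passed over the whole array (limma adjusted p 0.608 and 0.668 for OPN1SW with GRK7, 0.505 and 0.680 for ARR3 with OPN1SW).

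PDE6C and RXRG gave r 0.50 within diets (permutation p 0.034) and 0.51 over uncentred values (permutation p 0.0314, Spearman rho 0.51, permutation p 0.0321). These p were not adjusted for the number of pairs. Control replicate 8 was the lowest retina in both, and the within-diet r was 0.41 without it. It was 0.66 without sialyllactose replicate 8. The correlation was 0.69 in control retinas (exact permutation p 0.0419) and 0.36 in sialyllactose retinas (exact permutation p 0.326), and without the 2 retinas farthest from the PDE6C median, control replicate 8 and sialyllactose replicate 8, it was 0.55 (permutation p 0.0258, n = 16). The limma adjusted p was 0.999 and 0.739. By r, RXRG stood at rank 263 of 16798 for PDE6C, and PDE6C at rank 509 for RXRG. Both probe sets are dim. Up to 2 arrays share an equal deposited value of PDE6C and up to 3 of RXRG and of OPN1SW, and 34.1% of tested probe sets have such equal values.

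The remaining 6 pairs had lower correlations within diets. There, ARR3 gave r 0.02 with PDE6C and -0.10 with RXRG, OPN1SW gave -0.10 with PDE6C and 0.24 with RXRG, and GRK7 gave -0.14 with PDE6C and -0.10 with RXRG. Their permutation p lay between 0.393 and 0.945. Spearman rho over uncentred values was 0.41 for OPN1SW with RXRG (permutation p 0.0914), and 0.68 in sialyllactose retinas alone (exact permutation p 0.0514) beside 0.21 in control retinas (exact permutation p 0.589). For the other 5 pairs rho lay between -0.04 and 0.04. No limma adjusted p for these 6 pairs was under 0.855.

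**Figure D3:**
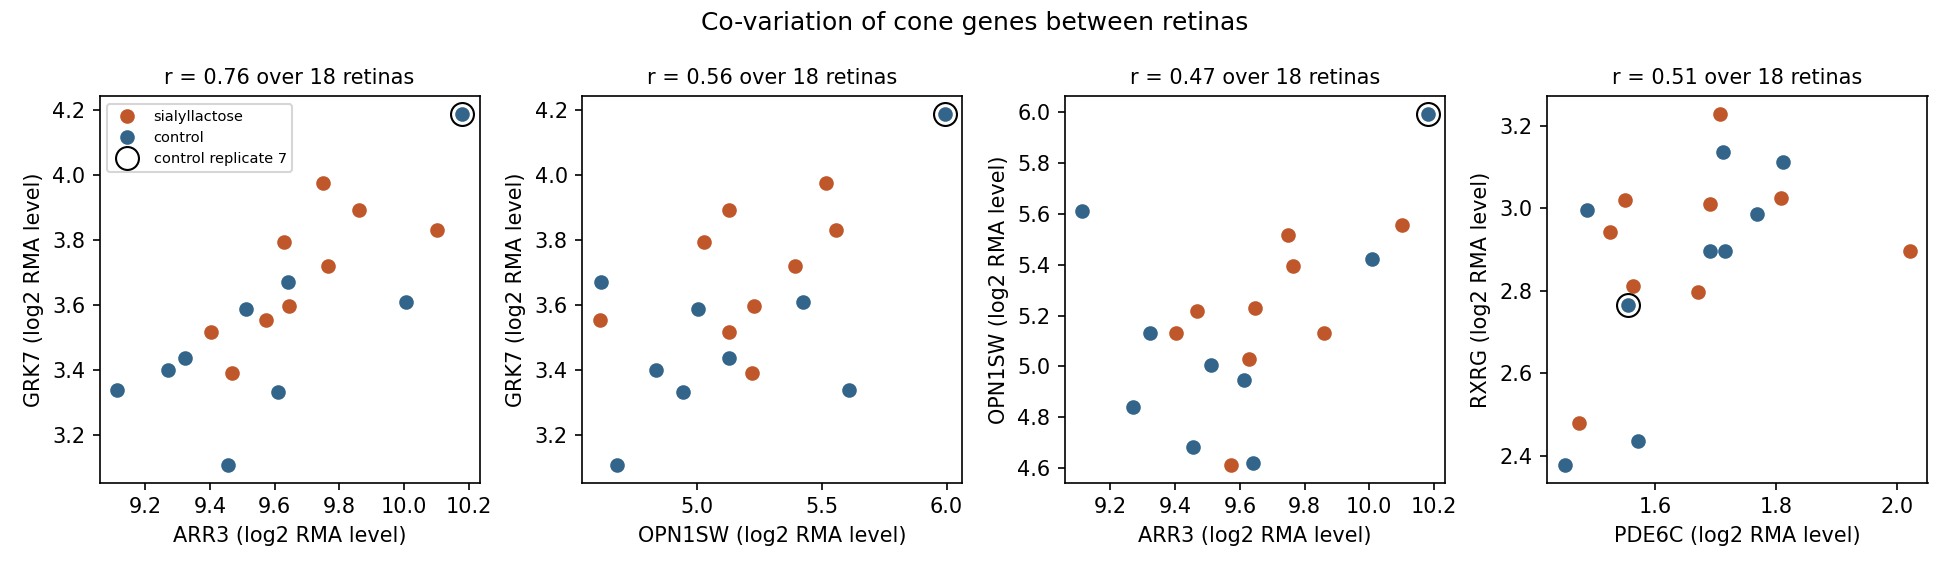
Levels (log2) of pairs of cone genes in the 18 retinas, one point per retina coloured by diet (sialyllactose first in the legend), with control replicate 7 ringed. Panel headings give r over uncentred values; ARR3 and GRK7 lie nearest to a line (0.76), and the ringed retina is at the upper end of ARR3, OPN1SW and GRK7.

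A pair of technical measures could be set beside these relations. The 3-prime minus 5-prime difference of the actin and GAPDH control probe sets, a sign of RNA degradation, was 2.34 ± 0.21 with sialyllactose and 2.29 ± 0.17 in controls (SD, n = 9 each), and its r with the cone genes ran from -0.33 for OPN1SW to 0.05 for RXRG. The level of the spiked hybridisation controls was 7.80 ± 0.12 with sialyllactose and 7.65 ± 0.19 in controls, with r from -0.29 for PDE6C to 0.30 for OPN1SW. With the 3-prime minus 5-prime difference in the model, the r of ARR3 and GRK7 was 0.76, and with the spike level it was 0.77. Without control replicate 2, the array least like the others, it was 0.78.

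Over the whole array, few probe sets followed a cone gene closely enough to pass. For ARR3, 4 of 16798 did at an adjusted p of 0.05 (0.0238%, limma). They were EMC8, a subunit of the membrane protein insertion complex of the endoplasmic reticulum, at r 0.90, TRAF6, a ubiquitin ligase of inflammatory signalling, at r -0.84, a second probe set of C2CD2 at r 0.82 and 1 probe set with no symbol at r 0.84, each with an adjusted p of 0.0248. These calls were unsteady. Leaving out 1 retina in turn gave between 0 and 6 calls, with 0 without control replicate 1, 3 or 7 or sialyllactose replicate 2, 6 or 8, and 1 without control replicate 2, which was none of these 4 (adjusted p 0.0926 to 0.125). The r of EMC8 stayed at 0.85 or more when any 1 retina was left out. OPN1SW, GRK7, PDE6C and RXRG had 0 calls (0% each), with lowest limma adjusted p of 0.103, 0.458, 0.882 and 0.190. Before adjustment, 1561 probe sets (9.29%) had a p under 0.05 for ARR3, 1177 (7.01%) for OPN1SW, 1023 (6.09%) for GRK7, 639 (3.8%) for PDE6C and 1106 (6.58%) for RXRG.

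The genes most like each cone gene, by the same r, differed between the 5 genes. After EMC8, ARR3 was followed by PDE6D (r 0.85), the carrier that brings prenylated phototransduction proteins to the outer segment, ERP29 (0.80), an endoplasmic reticulum chaperone, C2CD2 (0.79) and RARB (0.79), a retinoic acid receptor. PHKA2 and PIGM (both -0.77) ran the other way, behind TRAF6. PDE6D did not pass (limma adjusted p 0.362), nor did RARB (0.279), whose probe set is dim at means of 1.42 with sialyllactose and 1.55 in controls.

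OPN1SW was most like ADD1 (r 0.85), an adducin of the membrane skeleton, C9H1orf74 (0.82), RANGRF (0.82), HDGF (0.79) and KCNB2 (0.79), a voltage-gated potassium channel. AP1M1 (-0.79), an adaptor subunit of Golgi vesicle traffic, MSL3 (-0.79) and YWHAQ (-0.78) were most unlike it. None of these 8 genes passed (lowest limma adjusted p 0.180). GRK7 was most like AIFM1 (0.81), a mitochondrial flavoprotein, KIAA0232 (0.77), CHD7 (0.77), a chromatin remodeller, ARR3 (0.75) and ALDH4A1 (0.72), a mitochondrial enzyme of proline breakdown. At its other end stood MACROD1 (-0.77), LRIG1 (-0.75) and FHOD3 (-0.71).

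RXRG was most like RPUSD1 (r 0.82), AP2M1 (0.81), an adaptor subunit of endocytosis, TNFAIP8L2 (0.78), ENO2 (0.78), the neuronal enolase, and ATF7 (0.76), and most unlike KIAA1143 (-0.75), MGAT4C (-0.73) and SCD (-0.72), a fatty acid desaturase. PDE6C was most like EAF1 (0.73), AGTRAP (0.72), MAP3K3 (0.69), IGBP1 (0.68) and CAPNS1 (0.68). Its most unlike genes were ATP6V1D (-0.82) and ATP6V0E1 (-0.74), both subunits of the proton pump that acidifies vesicles, and BANP (-0.73). ARR3 beside GRK7 was the only cone gene in any of these 5 sets. By the mean of r over the 5 cone genes, C2CD2 (0.52), TMX1 (0.49), HK1 (0.48), a hexokinase of glycolysis, RABEP2 (0.48) and ADD1 (0.47) came first, followed by OLIG2, ATIC, POU2F1, XPNPEP1 and S100A14 at 0.46 each. TRO (-0.50), PFDN4 (-0.47), ETV6, IL1B (both -0.45) and TMEM184C (-0.44) came last.

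Short-wavelength cones are unevenly spread over the retina of many mammals, so genes of dorsal and ventral position were set beside the cone genes. Of 16 such genes, 7 had a tested probe set. The list mixes genes of both positions, so a count, median or mean over it stands for neither position alone. With OPN1SW, 5 of the 7 had an r above 0, where 46.6% of all probe sets did, and the median r was 0.51 against -0.02 over all probe sets. The same 5 genes were above 0 with ARR3 (median r 0.38, 49% of all probe sets above 0) and with GRK7 (median r 0.51, 48.7%). With PDE6C 4 of 7 were above 0 (51.6% of all probe sets) and with RXRG 3 of 7 (52.8%). Part of this rested on control replicate 7: without it the r with ARR3 was 0.18 for EFNB2, 0.18 for TBX2 and 0.09 for NR2F1, and TBX2 gave -0.01 with GRK7. None passed the limma fit with any cone gene. CYP26A1, which breaks down retinoic acid in a band of mouse retina, and BMP4, a dorsal growth factor of the developing eye, were below 0 with all 3 (-0.42 and -0.23 with OPN1SW). Without control replicate 7 the r of CYP26A1 with ARR3 was 0.04.

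EFNB2, an ephrin of the dorsal retina in mouse, had levels of 1.98, 3.07 and 3.45 (lowest, median and highest) in sialyllactose retinas and 2.27, 2.42 and 3.61 in controls, and followed OPN1SW at r 0.75 (limma adjusted p 0.180). ALDH1A1, which makes retinoic acid in the dorsal retina of mouse, had levels of 2.72, 6.24 and 6.89 with sialyllactose, against 3.97, 5.31 and 6.97 in controls, and followed OPN1SW at r 0.69 (limma adjusted p 0.343). The retina lowest in OPN1SW, sialyllactose replicate 1, was also the lowest in both genes, and the retina highest in OPN1SW, control replicate 7, was the highest in both. Without control replicate 7 the r was 0.68 for EFNB2 and 0.66 for ALDH1A1, and a second probe set of ALDH1A1 gave 0.73.

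NR2F2, a nuclear receptor of the dorsal retina in mouse, followed OPN1SW at r 0.61, with 0.64 and 0.60 for its other probe sets. TBX2, a dorsal transcription factor, gave 0.51, but its other probe sets gave -0.16 and 0.07, and without control replicate 7 the value was 0.27. NR2F1, a relative of NR2F2 that is not taken as a dorsal gene here, gave 0.45, and 0.25 without control replicate 7. For diet, 0 of the 7 genes had an unadjusted p under 0.05 in limma, where 6.3% of all probe sets did. The mean was higher with sialyllactose for 6 of 7 (46.6% of all probe sets), and for 7 of 7 after centring each array on its median (55.8%). The mean level of the list ranged from 3.50 to 4.17 with sialyllactose and from 3.48 to 4.21 in controls. Its r was 0.76 with OPN1SW, 0.59 with GRK7, 0.46 with ARR3, 0.16 with RXRG and 0.05 with PDE6C. Genes were not scaled in this mean, so those with a wide spread weigh most. The widest was ALDH1A1, with an SD of 1.31 with sialyllactose and 1.05 in controls. No r of this mean was taken without control replicate 7. Which part of each retina was sampled is not recorded in the labels, and its part in these values was not tested.

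**Figure D4:**
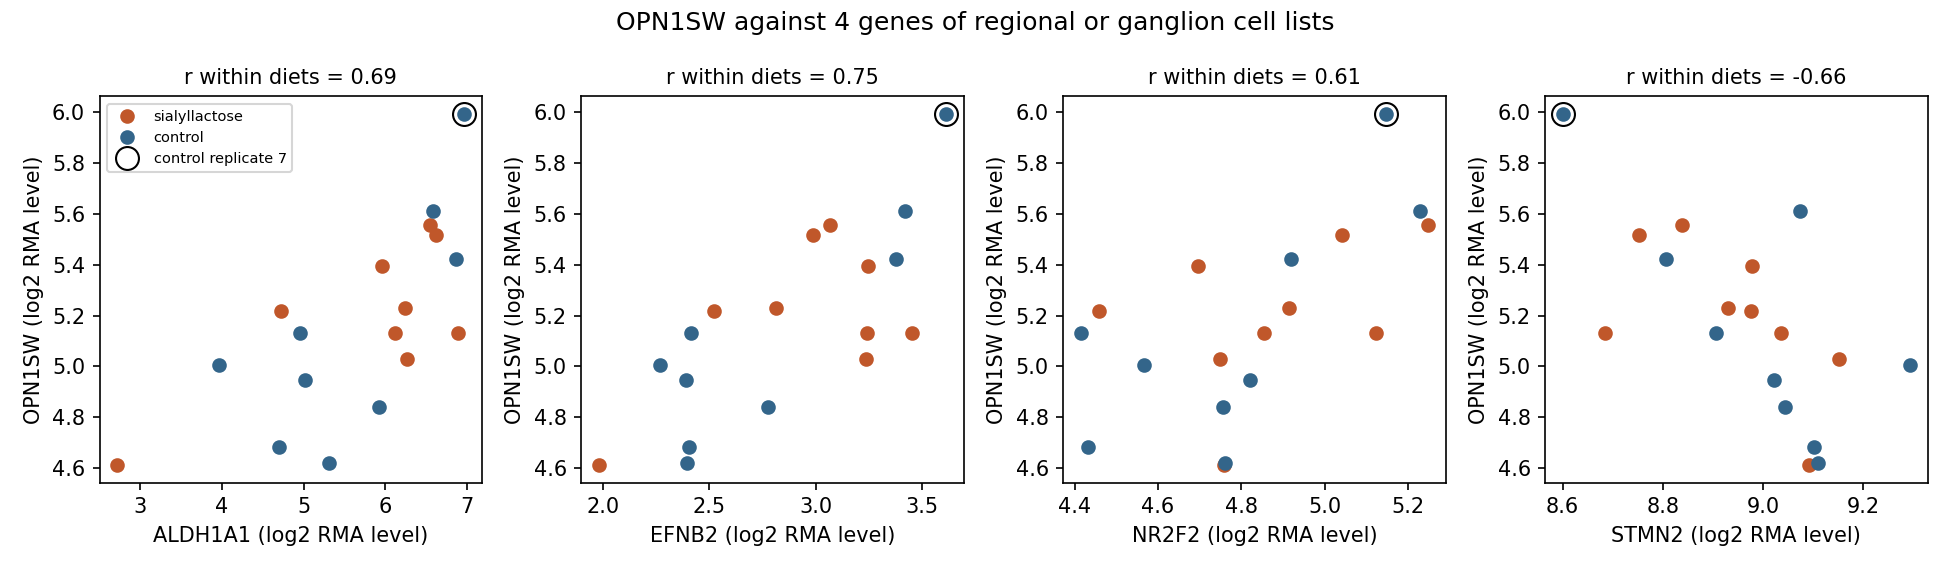
OPN1SW level against the level of ALDH1A1, EFNB2, NR2F2 and STMN2 (all log2), one point per retina, sialyllactose and control coloured apart, control replicate 7 ringed; these 4 were picked with their values known. OPN1SW goes up along the first 3 genes (r 0.69, 0.75 and 0.61 within diets) and down along STMN2 (r -0.66).

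Ganglion cell genes mostly had the opposite sign. Of 5 tested genes of 10 on the list, 0 had an r above 0 with OPN1SW (46.6% of all probe sets) and 0 with GRK7 (48.7%), and 1 had with ARR3 (49%). The median r was -0.58 with OPN1SW, -0.42 with GRK7 and -0.47 with ARR3, and none passed the limma fit. STMN2, a microtubule regulator of growing axons, gave -0.66 with OPN1SW, -0.65 with ARR3 and -0.61 with GRK7, and -0.48, -0.48 and -0.35 without control replicate 7. NEFL, the light neurofilament of axons, gave -0.58 with OPN1SW and -0.46 without control replicate 7. GAP43, a growth cone protein, gave -0.48 with OPN1SW and -0.10 with ARR3, and -0.28 and 0.22 without that retina. THY1, a surface protein of ganglion cells, gave -0.16 with OPN1SW, -0.03 with GRK7 and 0.12 with ARR3, and a second probe set gave 0.00369, 0.04 and 0.21, the other one -0.29, -0.16 and -0.36. RBPMS, an RNA-binding protein that marks ganglion cells, gave -0.62 with OPN1SW and -0.70 with ARR3, but its other probe sets lay between -0.18 and 0.15. The mean level of the list ranged from 6.46 to 6.85 with sialyllactose and from 6.36 to 6.82 in controls, and its r was -0.74 with OPN1SW, -0.61 with GRK7 and -0.56 with ARR3, beside 0.06 with PDE6C and -0.05 with RXRG. No r of this mean was taken without control replicate 7. The part of ganglion cell content in the cone values was not tested.

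Rods, which outnumber cones in the pig retina, had 2 tested genes. SAG gave r 0.21 with OPN1SW, 0.22 with ARR3 and 0.08 with GRK7, and CNGA1 gave 0.17, 0.02 and 0.30. With RXRG, SAG gave 0.38 and CNGA1 -0.39, and with PDE6C they gave -0.13 and -0.42. None of these passed the limma fit. Of the photoreceptor genes shared by rods and cones, 3 of 27 were tested. NEUROD1, a transcription factor, gave 0.37 with OPN1SW, ABCA4, a transporter of the visual cycle, gave 0.38 with OPN1SW and 0.49 with GRK7, and MEF2D, a transcription factor, gave -0.14 and -0.24. Without control replicate 7 ABCA4 gave -0.17 with OPN1SW and -0.11 with GRK7, and its r with ARR3 was -0.60 in place of 0.13.

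Thyroid hormone and retinoid genes, whose receptors set opsin choice in mouse cones, gave no common pattern. Of 17 genes, 8 were tested including RXRG; the other 7 split into 4 above 0 and 3 below 0 with each of ARR3, OPN1SW, GRK7 and PDE6C. RXRG followed DIO2, the enzyme that activates thyroid hormone, at r 0.72 (limma adjusted p 0.354). THRA, a thyroid hormone receptor, gave 0.55 with RXRG, but -0.22 by its second probe set. RARB, named above for ARR3, gave 0.60 with GRK7 and 0.35 with OPN1SW. The diet means of DIO2 were 2.51 with sialyllactose and 2.37 in controls, a difference of 0.13 that did not pass (limma adjusted p 0.863).

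**Figure D5:**
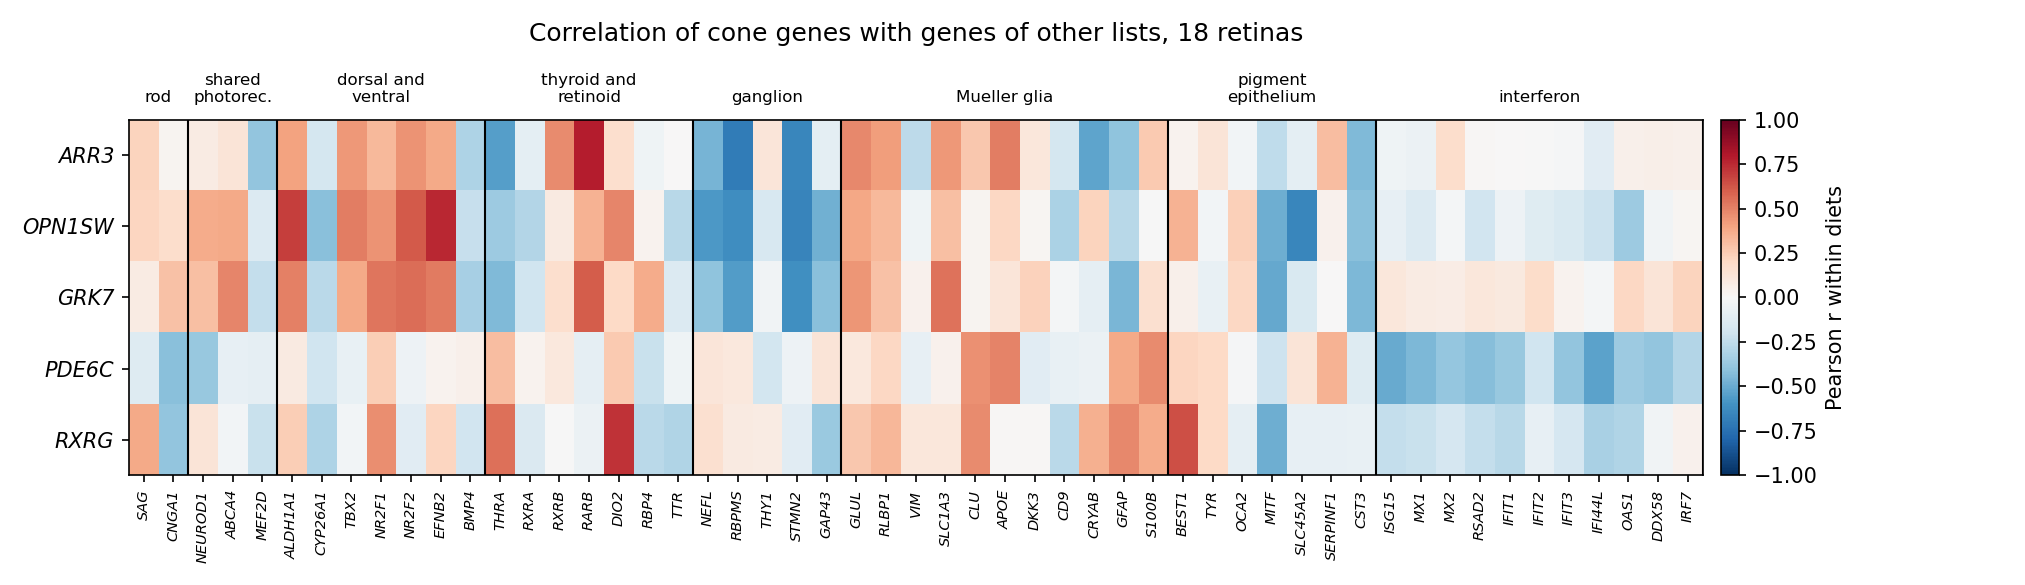
Pearson r, within diets over 18 retinas, of each cone gene (rows) with single genes of 8 lists (columns), red above 0 and blue below 0. ARR3, OPN1SW and GRK7 are red with 5 of 7 dorsal and ventral genes (EFNB2 with OPN1SW at 0.75) and blue with most ganglion genes (STMN2 at -0.65, -0.66 and -0.61), while the PDE6C row is blue across the interferon genes.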

How the data were processed

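The deposited table holds 1 log2 value per probe set and array; Affymetrix Expression Console and RMA were used per the submitters' processing notes, with settings not given in the sources used here. RMA compresses differences of dim probe sets and hides changes shared by most genes. Gene symbols came from the platform annotation.

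From these values, 124 control probe sets and the 7200 others with the lowest mean over 18 arrays (30%) were left out, and 16799 were tested. Diets were compared with limma 3.58.1 in R 4.3.3 (lmFit and eBayes, no covariate, Benjamini-Hochberg over all tested probe sets, threshold 0.05). Fold is 2 to the power of the log2 difference. The same fit was run on absolute deviations from the diet mean, and on each cone gene's level with diet in the model. Single genes had an exact permutation test over 48620 label splits, and pairs 100000 permutations or, within a diet, an exact test. The limma steps were tested on simulated data in which probe sets were drawn independently. Planted diet differences of 0.25 were recovered in 52% of cases and those of 0.5 in 90%. The changes were planted in many probe sets at once, picked at random. Apart from PDE6C, the cone genes had SDs within diets of 0.24 to 0.38, above the median of 0.16. Recovery at those SDs was not measured, so these shares do not carry over to the cone genes. Planted SD ratios, all wider with sialyllactose, were recovered in 2% at a ratio of 2 and in 38% at 16. Planted r of 0.6 was recovered in 10% and r of 0.8 in 54%. A failure to pass for spread or co-variation thus says little, and one for diet does not show that a cone gene was unchanged. The number of arrays limits precision.

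The cone genes and the 15 gene lists were chosen with earlier results of these data known. Named were the 5 genes, for each the 5 most and 3 least alike, the 10 and 5 by mean r, and genes of the lists; which list genes are described was in part chosen after their values were seen. A gene stood for its brightest tested probe set. Replicate numbers were not treated as pairs in the main fits. Same-numbered arrays correlated between -0.113 and 0.164 in their deviations from the diet means, and 3 of 9 pairs were above 0.1. For 3 of 9 sialyllactose arrays the most alike control was the same-numbered one. Whether the numbers mark a pairing cannot be told from these values. No scan date or batch is in the labels, so none was tested. Alternatives covered the filter, scaling, replicate block, variance prior, array weights, rank-sum test, other correlations and single arrays left out; covariates for RNA quality and spike level were added after the data were seen. No sequence of the genes was used here.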

Additional observations from a re-analysis of the deposited data

How the results depend on the processing

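No cone gene passed for diet or for spread, and no pair of cone genes passed, under any alternative that gave a test, and the count of probe sets called for diet was 0 in all. Each replicate number has 1 array of each diet, so a block on it cannot change the diet differences. They stayed at 0.12 for ARR3, 0.06 for OPN1SW, 0.18 for GRK7, 0.03 for PDE6C and 0.07 for RXRG. Only their tests could change, and the block changed no call among them. The block gave r -0.18 for ARR3 with PDE6C and 0.0170 for OPN1SW with PDE6C, both turned in sign, and its widest moves were to -0.65 for ARR3 with RXRG (limma adjusted p 0.816) and -0.38 for GRK7 with RXRG (0.914). The estimate that goes with the exact rank-sum test turned PDE6C's difference to -0.00452. In sialyllactose retinas alone r was -0.12 for ARR3 with PDE6C, 0.18 for OPN1SW with PDE6C and 0.48 for OPN1SW with RXRG. In control retinas alone it was -0.34 for OPN1SW with PDE6C and 0.69 for PDE6C with RXRG. Without the 2 retinas farthest from the median it was -0.00892 for ARR3 with PDE6C, 0.0585 for ARR3 with RXRG, 0.40 for OPN1SW with GRK7, 0.0165 for OPN1SW with PDE6C, 0.0220 for GRK7 with PDE6C and 0.0356 for GRK7 with RXRG; Spearman rho was 0.0279 for the last. The cause was not tested. The 4 calls for ARR3 became 0 after quantile normalization, with the replicate block and with the 3-prime minus 5-prime covariate, and OPN1SW had 1 call with that covariate and 3 with the spike level. Leaving out single retinas gave 0 to 6 calls for ARR3, 0 to 1 for GRK7 (1 without control replicate 7) and 0 to 1 for OPN1SW (1 without sialyllactose replicate 3 or 8). It moved the diet difference of OPN1SW between -0.00165 and 0.17 and of PDE6C between -0.0166 and 0.0519, the r of ARR3 with PDE6C between -0.12 and 0.24, and the spread difference of GRK7 between -0.0835 and 0.0213 and of PDE6C between -0.0153 and 0.0317. PDE6C falls below a filter of 50%, and means over several probe sets could not be formed, since each cone gene has 1. Its dim signal limits what can be read for PDE6C.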

Other observations

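Of the interferon list, 11 of 11 tested genes had an r below 0 with PDE6C, where 51.6% of all probe sets had an r above 0. Genes of this list can move together between retinas, so the counts below are not of independent genes. PDE6C is also dim, with a mean of 1.65, and 3.8% of all probe sets had an unadjusted limma p under 0.05 with it. The median r was -0.39, with -0.51 for ISG15, an interferon-induced ubiquitin-like protein, and -0.53 for IFI44L, and none passed (limma adjusted p 0.999). The mean level of the list ranged from 2.28 to 4.71 with sialyllactose and from 2.28 to 3.86 in controls, the widest range of the lists. With OPN1SW 1 of the 11 genes was above 0 (46.6% of all probe sets), with GRK7 10 were (48.7%), and with RXRG 1 was (52.8%; median r -0.22). RXRG was above 0 with 10 of 11 Müller glia genes (median r 0.27) and below 0 with 7 of 8 endothelium and pericyte genes (median r -0.30), where 52.8% of all probe sets were above 0 with it. Of the 9 pigment epithelium genes 3 were above 0 with RXRG (median r -0.08). BEST1, a chloride channel of that tissue, gave 0.65, and TTR, a carrier of thyroid hormone and retinol, gave -0.30. MITF, a pigment cell transcription factor, gave -0.48, but 0.49 by its second probe set. BEST1 averaged 4.27 with sialyllactose and 4.54 in controls (limma adjusted p 0.753).

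Lists of other retinal cells held genes of both signs beside OPN1SW and ARR3. Of the amacrine genes, OPN1SW gave r -0.54 with GAD1, which makes the transmitter GABA, and -0.57 with SST, the peptide somatostatin, but 0.40 with NPY, another neuropeptide (2 of 6 above 0). Of the pigment epithelium genes it gave -0.65 with SLC45A2, a pigment cell transporter, but 0.35 with BEST1 (4 of 9 above 0). ARR3 gave -0.54 with LAPTM5, a lysosomal protein of microglia, but 0.22 with CD14 (1 of 4 above 0). Of the Müller glia genes, ARR3 gave -0.53 with CRYAB, a small heat shock protein, but 0.48 with GLUL, the glutamine synthetase (7 of 11 above 0). With APOE, a lipid carrier of these cells, it gave 0.51, but -0.21 by the second APOE probe set. These genes were picked with their values known, and none passed over the whole array.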
